A study of Mus musculus with 10 samples.

Results

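The 4 wild-type livers of a mouse study of Tgfbr2 are described here by how they differ from each other and from a common pool of wild-type liver RNA. They are the 4 libraries, of 10 in all, whose titles set a wild-type chow-fed liver, numbered 1 to 4, against that pool. Each library is liver total RNA of 1 mouse on a 2-colour oligonucleotide array, and the pool joins liver RNA of 6 wild-type mice on chow. The other 6 libraries are livers of Tgfbr2+/- mice, heterozygous for a knockout of the type II TGF-beta receptor, named as male and also on chow. The wild-type mice are their littermate controls. The labels give no sex for the wild-type mice and no strain, age or time of dissection for any mouse, and they do not say whether the 4 wild-type mice also gave RNA to the pool. The heterozygous libraries entered no ranking of genes by SD or by distance from the pool. They serve as a second set of values and in a test of spread between the genotypes, which chose 3 of the genes named. Several macrophage markers were named after values had been seen, and those share a heterozygous pattern given at the end. Values are log2 ratios, liver over pool, listed in the order of replicates 1, 2, 3 and 4, so that 0 is the level of the pool, 1 is a doubling and -1 is a halving.

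A common reference lets livers be compared that were never on the same array, because each is read as a ratio to the same RNA. Among livers on one diet, messenger RNA is known to differ for genes that follow feeding, stress hormones, time of day, growth hormone pulses and infection. Acute phase genes are the best known of these. Hepatocytes make serum amyloid A, orosomucoid and hemopexin in amounts that rise when interleukin 6 and interleukin 1 reach the liver.

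Ratios are taken as liver over pool, a direction that is likely but that the labels do not settle. It rests on the titles, which name the pool first, and on the labels of the channels, which give Cy3 for the first and Cy5 for the second. The series design speaks of a dye swap, while each library has 1 deposited value per probe and 1 dye order in its labels. Wild-type replicate 1 had a Pearson correlation of -0.32 with Tgfbr2+/- replicate 5 over all probes, which raises a question about the sign of both columns. As deposited, wild-type replicate 1 correlated over genes at 0.13, 0.20 and 0.04 with wild-type replicates 2, 3 and 4. Moxd1 averaged -4.73 without replicate 1, and replicate 1 as deposited lay far below the pool too. Results are also given with wild-type replicate 1 turned in sign, a setting that would put it opposite the other wild-type libraries for Moxd1. Between the 4 wild-type libraries the correlations over genes ran from -0.12 to 0.20. In replicates 1 to 4, 18, 34, 32 and 29 of the 16383 named genes lay past 2-fold on either side of the pool. The files hold ratios and no intensities, so a ratio near 0 does not show that a gene is expressed in liver. The 23 measured hepatocyte markers had list means of 0.02, 0.01, -0.08 and -0.06, which sets the wild-type libraries close to the pool for these genes. Tgfbr2 itself lay at 0.23, 0.37, -0.07 and 0.08 in wild type as the mean of 2 probes. Its probes differed, at 0.42, 0.64, -0.29 and -0.07 on one and 0.04, 0.11, 0.15 and 0.23 on the other. In Tgfbr2+/- replicates 1 to 6 the first probe lay at -0.82, -1.11, -1.04, 0.20, -0.86 and -0.60, below the pool in all but replicate 4. The second lay at -0.03, 0.11, 0.28, -0.10, -0.12 and 0.24, on both sides of it.

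Serum amyloid A genes stood farthest below the pool together with Moxd1. Their promoters are shown because the 3 genes lie near each other on chromosome 7 and had nearly the same pattern of values. The 200 bases upstream of each start site are given from RefSeq's GRCm38.p6, with matches to TTGCNNAA, on either strand, in capitals. The letters resemble the site bound by C/EBP factors.
Saa1 (chr7:46742981-46743180, minus strand): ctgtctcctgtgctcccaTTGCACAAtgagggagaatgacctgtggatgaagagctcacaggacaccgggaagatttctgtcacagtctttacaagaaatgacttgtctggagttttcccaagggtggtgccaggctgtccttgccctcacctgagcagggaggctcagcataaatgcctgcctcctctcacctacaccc
Saa2 (chr7:46751633-46751832, plus strand): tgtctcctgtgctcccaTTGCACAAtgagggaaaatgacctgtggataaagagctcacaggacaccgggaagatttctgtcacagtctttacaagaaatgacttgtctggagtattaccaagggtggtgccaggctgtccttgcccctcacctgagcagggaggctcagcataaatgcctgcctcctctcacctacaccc
Saa3 (chr7:46715677-46715876, minus strand): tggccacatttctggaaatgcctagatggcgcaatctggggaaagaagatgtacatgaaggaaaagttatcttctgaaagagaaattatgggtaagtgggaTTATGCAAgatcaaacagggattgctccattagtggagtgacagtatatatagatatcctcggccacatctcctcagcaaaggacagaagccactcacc
Each window holds 1 match, starting 182, 183 and 99 bases before the start site, and 7.47% of 32851 promoter windows of the same length hold at least 1. The windows of Saa1 and Saa2 were 97.0% identical in a global alignment, and that of Saa3 was 51.3% identical to Saa1 and 51.7% to Saa2. A match describes these letters and is no evidence of binding.

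Moxd1 had the mean farthest from the pool in wild-type liver. It encodes a copper-dependent monooxygenase related to dopamine beta-hydroxylase, and it stood on the list of male-biased liver genes. The 4 wild-type values were -5.18, -4.64, -4.84 and -4.71, with a mean of -4.84 ± 0.24 (SD, n = 4), or 28.7-fold below the pool. In the Tgfbr2+/- libraries, in the order of replicates 1 to 6, it lay at -2.54, -1.00, -4.50, 0.44, 2.44 and -4.81. The wild-type values lay within 0.54 of each other, and the heterozygous ones overlapped them at the low end and reached above the pool.

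Serum amyloid A genes came next. Saa1, whose protein joins high-density lipoprotein during inflammation, lay at -3.32, -2.78, -3.29 and -2.32. Saa3, a family member made also by macrophages and fat cells, lay at -3.40, -2.82, -3.32 and -2.36. Saa2, the second hepatic form, lay at -2.53, -2.16, -2.35 and -1.44. All 12 of these values were below the pool, by 7.61-fold, 7.87-fold and 4.34-fold on average, with replicate 4 closest to the pool and replicate 1 farthest from it for each gene. Saa1 and Saa3 values differed by at most 0.15 in each of the 10 libraries, and Saa1 and Saa2 are near-identical copies, so the 3 genes cannot be counted as separate measurements. The Tgfbr2+/- values of Saa1 were -3.11, -2.80, -3.29, -0.41, 1.60 and -1.79, with replicates 1, 2 and 3 inside the wild-type range and replicate 5 above the pool.

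Wild type was tested against the pool with limma and Benjamini-Hochberg adjustment over 16383 genes, which called 4 genes below the pool (0.0244% of genes) and 0 above it. At an unadjusted p under 0.05, 443 genes lay above and 461 below. The genes called were Moxd1 (adjusted p = 6.65e-05), 2610507B11Rik (adjusted p = 0.00681), Saa1 (adjusted p = 0.0126) and Saa3 (adjusted p = 0.0126). The values of 2610507B11Rik were -1.49, -1.18, -1.38 and -1.21, even between the livers. Saa2 missed the threshold (adjusted p = 0.068). So did Ugt2b38, a UDP-glucuronosyltransferase gene at -1.15, -1.73, -0.90 and -1.23 (adjusted p = 0.187). The test takes the pool as a fixed level and leaves out its spread and any dye bias.

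Moxd1 passed with any 1 wild-type library left out, at an adjusted p of 0.00016 to 0.00296. Without replicate 1 or without replicate 2 it was the only gene called. Adjusted p was then 0.0536 and 0.0729 for 2610507B11Rik, and 0.156 and 0.177 for both Saa1 and Saa3. Without replicate 3 limma called 5 genes, with Plcd3 added, and without replicate 4 it called 6, with Saa2 and Phlda1 added, all below the pool. With replicate 1 turned in sign limma called 0 genes, with 590 at an unadjusted p under 0.05. With the heterozygous libraries sharing the estimate of the spread it also called 0, with 678 at an unadjusted p under 0.05, and the SD of Moxd1 in that group was 2.84.

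**Figure D1:**
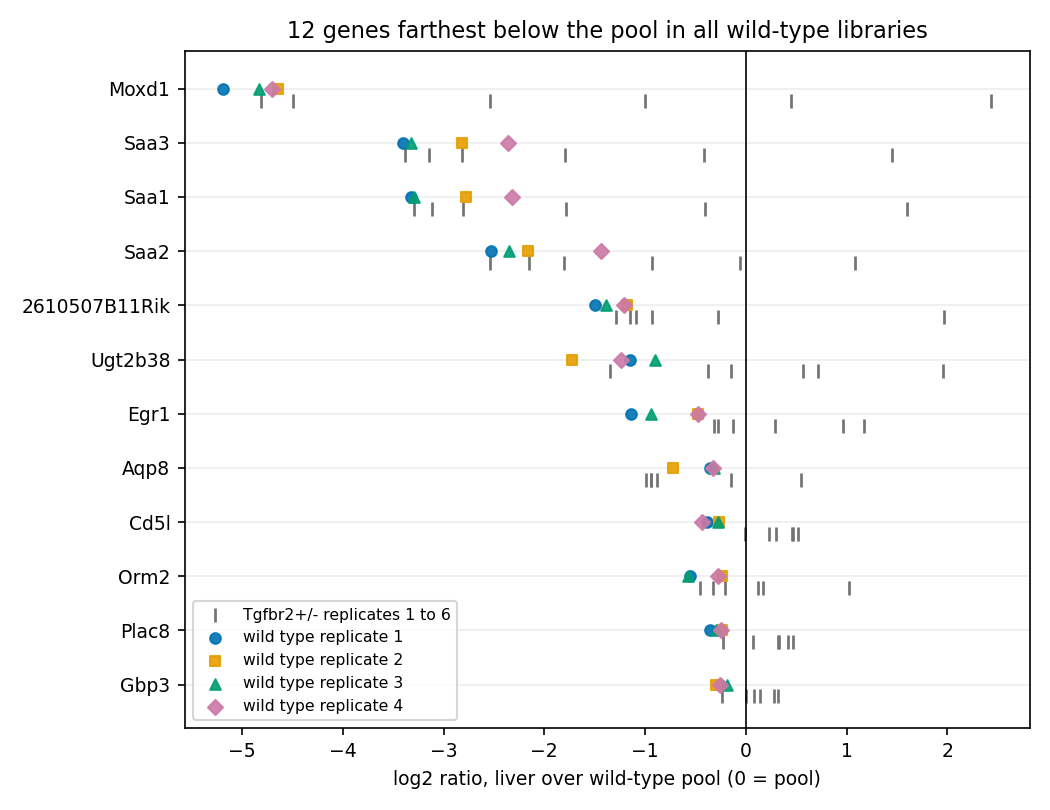
Log2 ratio over the pool (x axis) of the 12 genes that lay farthest below it in all 4 wild-type libraries, ranked by the library closest to the pool. Coloured symbols are the wild-type replicates and grey ticks the 6 Tgfbr2+/- replicates. The wild-type values of Moxd1 sit together near -4.84, while the grey ticks of Moxd1 and the Saa genes spread on both sides of 0.

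Of all genes, 952 had each of the 4 wild-type values below the pool (5.81% of genes) and 1454 above it (8.88%). Independent random signs would put all 4 values on one side with a probability of 0.125, and 14.7% of genes lay on one side here. Most did so by little. When each of the 4 values had to be past 0.1, the counts were 66 below and 33 above, and they were 6 and 0 past 0.5, and 5 and 0 past 1. The balance between the sides depended on centring. Genes above made up 60.4% of the one-sided ones as deposited and 48.2% after each column was centred on its median, with 1141 above and 1227 below. With 1 of the 4 libraries left out, 2252 to 2747 genes lay above the pool and 1542 to 2070 below it in the other 3. Such a rise follows from the smaller number of values that must share a side. With replicate 1 turned in sign 1289 lay above and 791 below.

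The 6 genes past 0.5 were Moxd1, the 3 Saa genes, 2610507B11Rik and Ugt2b38. Next in rank was Egr1, an immediate-early transcription factor gene, at -1.14, -0.48, -0.95 and -0.47. Replicates 1 and 3 were the lower pair for it. Aqp8, a water channel gene, lay at -0.35, -0.72, -0.31 and -0.33, with replicate 2 apart. Cd5l, a protein secreted by macrophages, lay at -0.39, -0.27, -0.28 and -0.43. Orm2, an orosomucoid of the acute phase, lay at -0.55, -0.24, -0.57 and -0.27, again lower in replicates 1 and 3. Plac8 lay at -0.36, -0.23, -0.30 and -0.24 and was even. Gbp3, an interferon-induced GTPase gene, lay at -0.25, -0.30, -0.18 and -0.25 and had the smallest SD of the 12, 0.05. These 6 genes did not pass the test, with limma adjusted p from 0.484 for Cd5l to 0.886 for Egr1.

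Acute phase genes as a list lay below the pool, in large part through the Saa genes. The 29 measured genes averaged -0.45, -0.20, -0.43 and -0.36, and the 26 without the Saa genes -0.15, 0.07, -0.14 and -0.17, so that replicate 2 was then above the pool. Of the 29, 9 (31.0%) were below in all 4 libraries, beside 5.81% of all genes, and 0 were above. By limma 2 passed, Saa1 and Saa3, both below. With replicate 1 turned in sign 0 of the 29 were below in all 4.

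The other 6 of those 9 acute phase genes are carriers and protease inhibitors of plasma. Orm1, an orosomucoid, lay at -0.57, -0.06, -0.50 and -0.25. Hpx, the heme carrier hemopexin, lay at -0.50, -0.27, -0.45 and -0.10. Both had the pattern of Orm2, with replicates 1 and 3 lowest. Lcn2, a lipocalin that binds bacterial iron carriers, lay at -0.36, -0.06, -0.19 and -0.18. Orm3 (-0.13, -0.03, -0.13 and -0.14) and Serpina10 (-0.11, -0.27, -0.12 and -0.01), a protease inhibitor of coagulation, lay closer to the pool. Other members varied on both sides of it. Apcs, which encodes serum amyloid P, lay at -0.63, 1.05, -0.86 and -0.19, with replicate 2 alone above. Fgl1, a fibrinogen-like protein of hepatocytes, lay at -0.59, -0.48, -1.08 and 0.26, with replicate 4 alone above. Haptoglobin, Hp, stayed within 0.29 of the pool at -0.03, 0.04, -0.29 and 0.20. Replicate 2 was the highest library for 14 of the 29 genes, beside 33.9% of all genes.

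Kupffer cells are the resident macrophages of liver sinusoids. Of 32 measured macrophage markers 14 had all 4 wild-type values below the pool (43.8%, beside 5.81% of all genes) and 2 above it. The list means were -0.10, -0.13, -0.11 and -0.17. Limma called 0 of the 32. At an unadjusted p under 0.05, 16 lay below the pool and 0 above, beside 461 and 443 of all 16383 genes. With replicate 1 turned in sign 3 were below in all 4 libraries. In the Tgfbr2+/- libraries, replicates 1 to 6, the same genes averaged 0.04 to 0.23, all above the pool. In bulk liver, fewer cells of a type and less RNA per cell cannot be told apart.

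Adgre1, a surface marker gene of mouse macrophages, lay at -0.24, -0.42, -0.18 and -0.29. Folr2, a folate receptor gene, lay at -0.57, -0.13, -0.29 and -0.26. Clec4f, a lectin gene of Kupffer cells, lay at -0.36, -0.11, -0.19 and -0.33. Replicate 1 was lowest for the last 2 and replicate 2 for Adgre1, so no single library carried the markers. Vsig4, a complement receptor gene, lay at -0.28, -0.15, -0.17 and -0.33. Ctss, a lysosomal protease gene, lay at -0.27, -0.28, -0.14 and -0.32. Mpeg1, which encodes a pore-forming protein, lay at -0.17, -0.14, -0.19 and -0.19 and was the most even of those named here. Scavenger receptor genes of the same cells varied instead. Cd163 lay at 0.21, 0.40, 0.28 and -0.81, with replicate 4 apart. Marco lay at 0.53, -0.13, -0.80 and -0.10, with replicates 1 and 3 on opposite sides. The 23 endothelial markers of the sinusoids had means of -0.02, -0.04, -0.002 and -0.02 and 0 members below in all 4.

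Of 52 interferon-stimulated genes 13 lay below the pool in all 4 libraries (25.0%, beside 5.81% of all genes) and 2 above (3.8%, beside 8.88%). Limma called 0. At an unadjusted p under 0.05, 10 lay below and 2 above, beside 461 and 443 of all 16383 genes. Ifi27l2a, an interferon-induced gene, lay at -0.91, -0.41, -0.33 and -0.18, with replicate 1 lowest. The chemokine gene Cxcl10 varied most in the list, at -0.54, -0.83, -0.17 and 0.40. Cxcl9, a second chemokine gene of the same receptor, lay at -0.52, -0.43, 0.34 and -0.05. Both were below the pool in replicates 1 and 2. Gbp4, a relative of Gbp3, lay above the pool at 0.12, 0.22, 0.07 and 0.22, so members of the guanylate-binding family stood on opposite sides. Without wild-type replicate 4 the number below in all others was 25 of 52, and with replicate 1 turned in sign it was 6.

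Bile acid genes had 4 of 22 members below in all 4 libraries (18.2%, beside 5.81% of all genes) and 1 above (4.5%, beside 8.88%). Limma called 0. At an unadjusted p under 0.05, 2 lay below and 1 above, beside 461 and 443 of all 16383 genes. With replicate 1 turned in sign 2 were below and 0 above. Nr0b2, which encodes SHP, a nuclear receptor that represses bile acid synthesis, lay at -0.21, -0.49, -0.37 and -0.16. Abcb11, the pump that moves bile acids into bile, lay at -0.17, -0.05, -0.13 and -0.02. Synthesis genes differed by library. Cyp7a1, the rate-limiting enzyme of bile acid synthesis, lay at -0.11, 0.52, -0.39 and -0.17. Cyp8b1, the hydroxylase that makes cholic acid, lay at -0.31, 0.32, -0.60 and -0.16. Slc10a1, the uptake carrier NTCP, lay at -0.10, 0.40, -0.12 and -0.15. Replicate 2 was the only library above the pool for all 3.

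No gene lay above the pool by over 0.5 in all 4 libraries. Miox, a kidney enzyme of inositol breakdown, led the ranking at 0.45, 0.25, 3.67 and 0.54, with replicate 3 far above the other libraries. Vmn1r18, a vomeronasal receptor gene, lay at 0.29, 0.45, 0.33 and 0.23. Tfap2b, a transcription factor gene of kidney and neural crest, lay at 0.18, 0.34, 0.48 and 0.78. These are genes of tissues other than liver, as are Tmprss11g, a protease gene of squamous epithelia (0.21, 0.17, 0.21 and 0.17), and the odorant receptor gene Olfr195 (0.18, 0.15, 0.16 and 0.19). Others among the leading 12 are used by most cells. Kdelr1, which returns proteins to the endoplasmic reticulum, lay at 0.27, 0.19, 0.13 and 0.14. Tigar, which lowers glycolytic flux, lay at 0.14, 0.14, 0.14 and 0.13 and was among the most even genes of all, with an SD of 0.01. The lowest limma adjusted p among the 12 was 0.699.

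Ribosomal protein and respiratory chain genes lay near the pool but differed by library. The ribosomal means were 0.01, -0.02, 0.02 and 0.10, and 47 of the 52 genes lay above the pool in replicate 4. That library was the highest for 35 of them (67.3%, beside 23.9% of all genes). Replicate 1 was the highest for 24 of the 58 oxidative phosphorylation genes (41.4%, beside 21.9%). Of 52 ribosomal protein genes 9 were above in all 4 libraries (17.3%, beside 8.88% of all genes) and 1 below, and of 58 oxidative phosphorylation genes 10 were above (17.2%) and 1 below. The counts above were 9 and 8 after median centring, 9 and 10 after quantile normalization, and 6 and 1 with replicate 1 turned in sign. Rpl34, of the large ribosomal subunit, lay at 0.10, 0.08, 0.17 and 0.17. Cox7a2, a cytochrome c oxidase subunit gene, lay at 0.18, 0.07, 0.10 and 0.08. Rps6, the ribosomal protein phosphorylated downstream of mTOR, lay below at -0.08, -0.17, -0.11 and -0.11. Limma called 0 of these genes. At an unadjusted p under 0.05, 7 ribosomal and 4 oxidative phosphorylation genes lay above and 1 and 0 below. Over all 16383 genes 443 lay above and 461 below.

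Most genes varied little between the 4 livers. The median SD over all named genes was 0.0875 on the log2 scale, the 95th percentile was 0.27 and the 99th was 0.48. The SD exceeded 0.5 for 148 genes (0.903% of genes) and 1 for 25. The 24 genes of largest SD began with Trgv5 (3.30) and ended with Nipal1, just over 1. When 1 library was left out, 15 (without replicate 4) to 22 (without replicate 1) of these 24 were still among the 24 of largest SD. The next in order were Plcd3, also just over 1, and Crym (0.99). With 1 deposited value per mouse these SDs join differences between livers and between arrays.

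**Figure D2:**
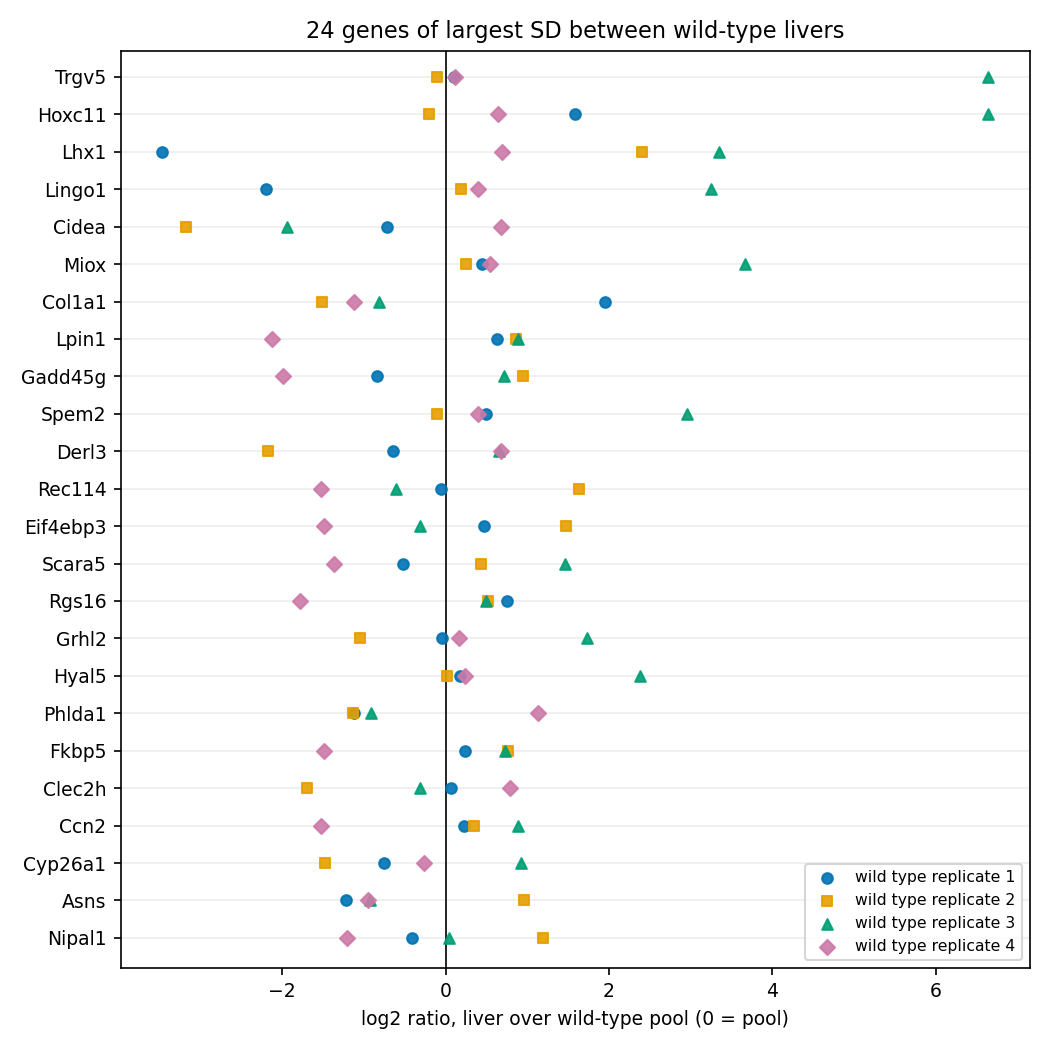
Log2 ratio over the pool (x axis) in each wild-type library for the 24 genes of largest SD, ordered from the largest at the top. Replicate 3 stands far to the right for Trgv5, Hoxc11, Miox, Spem2 and Hyal5, and replicate 4 to the left for Lpin1, Gadd45g, Rgs16, Fkbp5 and Ccn2.

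For 9 of these 24 genes replicate 3 was the library farthest from the others, each time as the highest. Trgv5, a variable segment of the T cell receptor gamma chain, lay at 0.10, -0.10, 6.64 and 0.11. Hoxc11, a homeobox gene of limb and kidney development, lay at 1.59, -0.20, 6.64 and 0.65. The value of 6.64 is the 100-fold limit of the deposited ratios and so a bound. Hyal5, a sperm hyaluronidase gene, lay at 0.18, 0.02, 2.38 and 0.24. Spem2, a spermatid gene, lay at 0.49, -0.11, 2.95 and 0.39. Grhl2, an epithelial transcription factor gene, lay at -0.05, -1.05, 1.73 and 0.16. In the first 2 of these 3 the other libraries stayed within 0.49 of the pool, and Grhl2 was also low in replicate 2.

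Lingo1 and Lhx1 had replicates 1 and 3 on opposite sides. Lingo1, a neuronal surface protein gene, lay at -2.20, 0.19, 3.24 and 0.40. Lhx1, a homeobox gene of kidney and head development, had an SD of 3.01 that came from 1 of its 2 probes. That probe lay at -6.64, 4.77, 6.64 and 1.42, and the second at -0.29, 0.05, 0.05 and -0.03. Of the 5 wild-type values at the limit, 4 belonged to Trgv5, Hoxc11 and Lhx1 and the other to a probe unnamed here. Whether these spots were bright or close to background cannot be read from ratios.

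Replicate 4 was farthest from the others for 8 of the 24, in 6 of them as the lowest. Lpin1, a phosphatidate phosphatase and coactivator that fasting induces, lay at 0.63, 0.86, 0.88 and -2.12. Gadd45g, a stress sensor gene, lay at -0.84, 0.95, 0.72 and -1.99. Fkbp5, a co-chaperone of the glucocorticoid receptor that the hormone induces, lay at 0.24, 0.77, 0.72 and -1.49. For Lpin1 and Fkbp5 the other 3 livers were above the pool. Rgs16, a regulator of G protein signalling, lay at 0.75, 0.52, 0.50 and -1.78. Ccn2, a matricellular target of TGF-beta and YAP, lay at 0.22, 0.35, 0.89 and -1.52. The Tgfbr2+/- libraries ranged over -1.94 to 0.26 for Lpin1 and -2.00 to -0.21 for Rgs16, so values as low as that of wild-type replicate 4 were found or approached there. Phlda1 was the opposite case, with replicate 4 high at -1.12, -1.13, -0.92 and 1.14.

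The list of fasting and gluconeogenesis genes had its lowest mean in the same library. Its 28 measured members averaged -0.02, 0.24, 0.12 and -0.34, and replicate 4 was the lowest library for 15 of them, beside 25.3% of all genes. G6pc, the phosphatase that releases glucose, lay at 0.38, 0.13, 0.26 and -0.99. Pck1, which commits carbon to gluconeogenesis, lay at -0.02, 0.01, -0.07 and -0.59. Igfbp1, an insulin-repressed binding protein gene, lay at -0.20, 0.53, 0.63 and -0.86. Got1, an aminotransferase gene, lay at -0.19, 0.84, 0.32 and -0.82. For all 4, replicate 4 was lowest. Angptl4, a lipase inhibitor gene, lay at 0.24, 0.26, 0.26 and -0.51, and its other 3 livers agreed within 0.03. Of the 28 members 13 were among the 5.01% of genes of largest SD, and the median SD of the list was 0.25. Klf15, a fasting-induced transcription factor gene, was even at -0.11, -0.04, -0.08 and -0.07.

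Other genes had replicate 4 lowest too. Plin5, a lipid droplet gene of fatty acid oxidation, lay at 0.13, 0.71, 0.64 and -0.77. Cebpd, a hormone-responsive transcription factor gene, lay at 0.22, 0.52, 0.38 and -1.17. Dusp1, a phosphatase gene that glucocorticoids induce, lay at 0.37, 0.16, 0.48 and -0.87. In Cebpd and Dusp1 the other 3 livers were above the pool.

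Replicate 2 was farthest from the others for 5 of the 24, in 3 of them as the highest. Asns, the asparagine synthetase gene that amino acid shortage induces, lay at -1.22, 0.96, -0.92 and -0.95. Rec114, a meiotic recombination gene, lay at -0.06, 1.63, -0.60 and -1.53. Nipal1, a magnesium transporter gene, lay at -0.42, 1.19, 0.05 and -1.20. In these 3 genes replicate 2 was highest, and in the last 2 replicate 4 was lowest. Eif4ebp3, an inhibitor of translation initiation, lay at 0.47, 1.47, -0.32 and -1.49, with replicate 2 highest and replicate 4, the library farthest from the others, lowest.

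Lipid synthesis genes also differed by library. The means of the 23 lipogenesis genes were -0.11, 0.11, -0.11 and -0.19. Thrsp, a lipogenic regulator driven by thyroid hormone and carbohydrate, lay at 0.41, 0.35, -0.29 and -1.06. Scd1, the stearoyl-CoA desaturase gene, lay at -0.60, 0.44, 0.04 and -0.63. Acss2, an acetyl-CoA synthetase gene, lay at -0.72, 0.47, -0.40 and -0.35. Replicate 2 was highest for the last 2. Cidea, a lipid droplet protein gene that is induced in fatty liver, had an SD of 1.65, at -0.72, -3.18, -1.94 and 0.68. Cd36, a fatty acid transporter gene, lay at 0.25, -1.01, -0.07 and 0.18. Replicate 2 was lowest for both, opposite to its place in Scd1 and Acss2.

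Genes of cholesterol synthesis set replicate 1 apart. The means of 19 measured genes were -0.40, -0.01, -0.09 and 0.04, and replicate 1 was the lowest library for 15 of them, beside 25.6% of all genes. Sqle, the squalene epoxidase gene, lay at -0.97, 0.24, -0.01 and 0.07. Pmvk, the phosphomevalonate kinase gene, lay at -0.66, 0.26, -0.18 and 0.14. Cyp51, the lanosterol demethylase gene, lay at -0.52, 0.10, -0.03 and 0.08. In these the other 3 livers were close to the pool or above it. Fdps, the farnesyl diphosphate synthase gene, lay at -0.47, 0.18, -0.06 and -0.11. Msmo1, the sterol C4 oxidase gene, lay at -0.61, -0.25, -0.11 and 0.24. For Insig1, which holds the sterol sensor in the endoplasmic reticulum, replicate 2 was lower still, at -0.28, -0.40, 0.07 and 0.30. None of the 19 lay on one side of the pool in all 4 libraries. With its sign turned, replicate 1 would have a list mean of 0.40, the highest of the 4.

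Markers of the mesothelium, the cell layer that covers the liver, were high in replicate 1. The 7 measured members averaged 0.51, -0.32, -0.24 and -0.20. Msln, the surface protein mesothelin, lay at 1.08, -0.84, -0.50 and -0.53. Wt1, a transcription factor gene of mesothelial cells, lay at 0.99, -1.02, -0.65 and -0.55. Upk1b, a uroplakin gene, lay at 0.86, -0.56, -0.43 and -0.36. Replicate 1 alone was above the pool for all 3. Krt14 (0.41, 0.06, -0.07 and -0.08) and Krt19 (0.21, 0.04, -0.01 and 0.05) were also highest in replicate 1, and the remaining 2 members stayed close to the pool.

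Col1a1, the main chain of type I collagen and the seventh gene by SD, had the same high library, at 1.95, -1.51, -0.81 and -1.12. Col1a2, the second chain, lay at 0.63, -0.27, -0.20 and -0.25. Krt7, a keratin gene of duct and mesothelial cells, lay at 0.51, -0.23, -0.16 and -0.21. Replicate 1 alone was above the pool in these too. The stellate cell and fibroblast list averaged 0.14, -0.11, -0.05 and -0.11 over 29 genes. Col3a1, of type III collagen, lay at 0.20, 0.33, 0.19 and -0.08 and did not set replicate 1 apart. Acta2, the smooth muscle actin gene, lay at 0.25, 0.03, -0.14 and -0.19. Lrat, the retinol enzyme of stellate cells, lay at 0.09, -0.30, -0.02 and -0.03. Replicate 1 was highest for both, by less than for Col1a1. The part of mesothelial cells in the collagen values was not tested. With its sign turned, replicate 1 would have a mesothelium mean of -0.51, the lowest of the 4.

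Genes of protein folding in the endoplasmic reticulum set replicates 1 and 2 against replicates 3 and 4. Derl3, which moves misfolded proteins out for degradation, lay at -0.64, -2.18, 0.65 and 0.67. Creld2, a secreted stress protein gene, lay at -1.23, -1.12, 0.74 and 0.21. Sdf2l1, a chaperone partner gene, lay at -0.43, -0.56, 0.28 and 0.19. Each was below the pool in the first 2 replicates and above it in the others. Manf, a secreted stress protein gene, lay at -0.47, -0.38, 0.37 and 0.18. Pdia4, a disulfide isomerase gene, lay at -0.19, -0.30, 0.33 and 0.29. Hsp90b1, the chaperone GRP94, lay at -0.26, -0.42, 0.21 and 0.14. These 3 had the same signs. Over the 32 measured heat shock and ER stress genes the means were -0.15, -0.24, 0.09 and 0.09, and 12 of the 32 were among the 5.01% of genes of largest SD. With its sign turned, replicate 1 would have a list mean of 0.15 and join replicates 3 and 4.

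**Figure D3:**
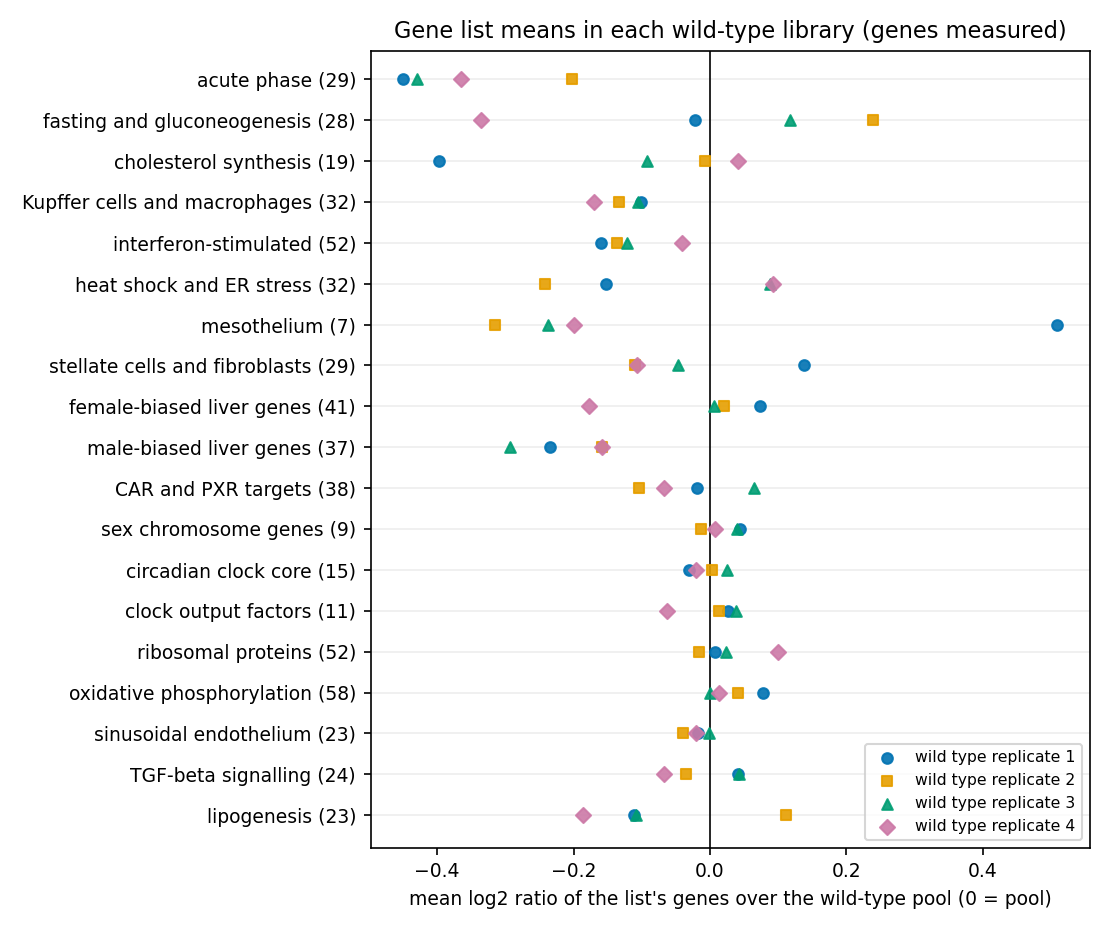
Mean log2 ratio over the pool (x axis) of the measured genes of 19 lists in each wild-type library, with the number of genes in parentheses. The acute phase list lies left of 0 in all 4 libraries, replicate 1 stands apart for mesothelium and cholesterol synthesis, and replicate 4 stands to the left for fasting genes.

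The clock of the liver is a feedback loop of transcription factors, and its genes swing over the day. Of 15 measured core clock genes 1 was among the 5.01% of largest SD, and their median SD was 0.12, beside 0.0875 for all genes. That gene was Nr1d1, the repressor REV-ERB alpha, at -0.40, -0.54, -0.41 and 0.31, with replicate 4 apart. Arntl, which encodes BMAL1 and is repressed by Nr1d1, lay at -0.28, 0.08, 0.33 and -0.04. Per2, a repressor gene of the loop, lay at 0.24, 0.04, -0.17 and -0.13. Dbp, a direct output gene with a wide daily range, lay at -0.002, -0.05, -0.08 and 0.06, within 0.14 in the 4 livers. Noct, a gene that feeding and time of day both drive, varied most among the outputs, at 0.02, 0.48, 0.33 and -0.54.

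Sex-biased liver genes follow the pattern of growth hormone release. Of 41 measured female-biased genes 17, and of 37 male-biased genes 16, were among the 5.01% of largest SD. Cyp2b9, a female-biased cytochrome P450 gene, lay at 0.30, -0.12, 0.32 and -1.42. Cyp2b13, its neighbour, lay at 0.21, -0.69, -0.11 and -1.26. Cyp17a1, a steroid hydroxylase gene, lay at 0.54, 0.72, -0.02 and -1.34. Replicate 4 was lowest for all 3. Hao2, a female-biased peroxisomal oxidase gene, was below the pool in all 4 libraries at -0.01, -1.00, -0.41 and -0.50, by very little in replicate 1. The male-biased list averaged -0.23, -0.16, -0.29 and -0.16. Of its 37 genes 5 (13.5%, beside 5.81% of all genes) lay below the pool in all 4 libraries and 2 (5.4%, beside 8.88%) above. By limma 1 passed, Moxd1. With replicate 1 turned in sign 3 were below and 4 above. Moxd1 and Ugt2b38 lay far below the pool. Hsd3b5, a male-biased steroid enzyme gene, lay at 0.19, -0.50, -0.68 and 0.31. Slco1a1, an organic anion carrier gene, lay above the pool at 0.20, 0.28, 0.13 and 0.08.

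Y-linked genes stayed near the pool. Kdm5d, a histone demethylase gene, lay at 0.05, -0.23, -0.12 and -0.17. Uty, a second demethylase-like gene, lay at -0.01, 0.004, -0.09 and 0.13. Usp9y, a deubiquitinase gene, lay at 0.11, 0.16, 0.11 and 0.14. The wild-type sex is not given in the labels, and these ratios show only that each liver's value was close to that of the pool.

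Markers of blood and of neighbouring organs differed between lists. Of 15 erythroid genes 4, of 12 adipose tissue genes 5 and of 19 neutrophil genes 2 were among the 5.01% of genes of largest SD. Hbb-b1, a hemoglobin beta chain gene, lay at -0.04, -0.19, -0.78 and 0.02. Klf1, an erythroid transcription factor gene, lay at 0.17, 0.22, -0.55 and -0.08. Both were lowest in replicate 3. S100a9, a neutrophil alarmin gene, lay at -0.52, -0.51, -0.45 and 0.13, with replicate 4 alone above the pool. The adipose tissue list averaged -0.02, -0.22, -0.21 and -0.01, lower in replicates 2 and 3. Of 27 pancreatic acinar genes 0 were among the 5.01% of largest SD. The same count was 0 for 20 T and NK cell, 12 B cell, 23 endothelial and 16 muscle genes, and 0 for 52 ribosomal and 58 oxidative phosphorylation genes.

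Pericentral genes, those of the cells around central veins, were highest in replicate 4 as a list. The 20 measured members averaged -0.05, -0.07, -0.05 and 0.15, and 17 of them lay above the pool in replicate 4. That library was the highest for 11 of the 20, beside 23.9% of all genes, and the lowest for 0. Lgr5, a receptor gene of the Wnt-active cells around central veins, lay at -0.30, -0.09, -0.40 and 0.72. Rnf43, a feedback inhibitor of the same pathway, lay at -0.18, -0.40, -0.20 and 0.40. Replicate 4 was the only library above the pool for both. Of the 24 TGF-beta signalling genes 4 were among the 5.01% of largest SD, led by Ccn2. Klf10, an early TGF-beta response gene, lay at 0.32, 0.03, 0.41 and -0.46, with replicate 4 alone below the pool as for Ccn2. Smad3, a transducer of the receptor, was even at -0.02, -0.03, -0.07 and -0.02.

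Genes that varied most in wild type were variable in Tgfbr2+/- liver too, which the ranking had not used. Of the 820 genes of largest wild-type SD, 764 (93.2%) had a heterozygous SD above the median of all genes, 0.11. Of the top 24, 21 lay above the heterozygous 95th percentile of 0.30, and their median heterozygous SD was 0.60. The 3 below it were Trgv5 (0.24), Lingo1 (0.28) and Eif4ebp3 (0.28). The SD was smaller in heterozygous than in wild-type liver for 21 of the 24, which the choice of genes by a high wild-type SD favours. In the other direction, Moxd1 had an SD of 0.24 in wild type and 2.84 in Tgfbr2+/-. Saa1 had SDs of 0.47 and 1.91.

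**Figure D4:**
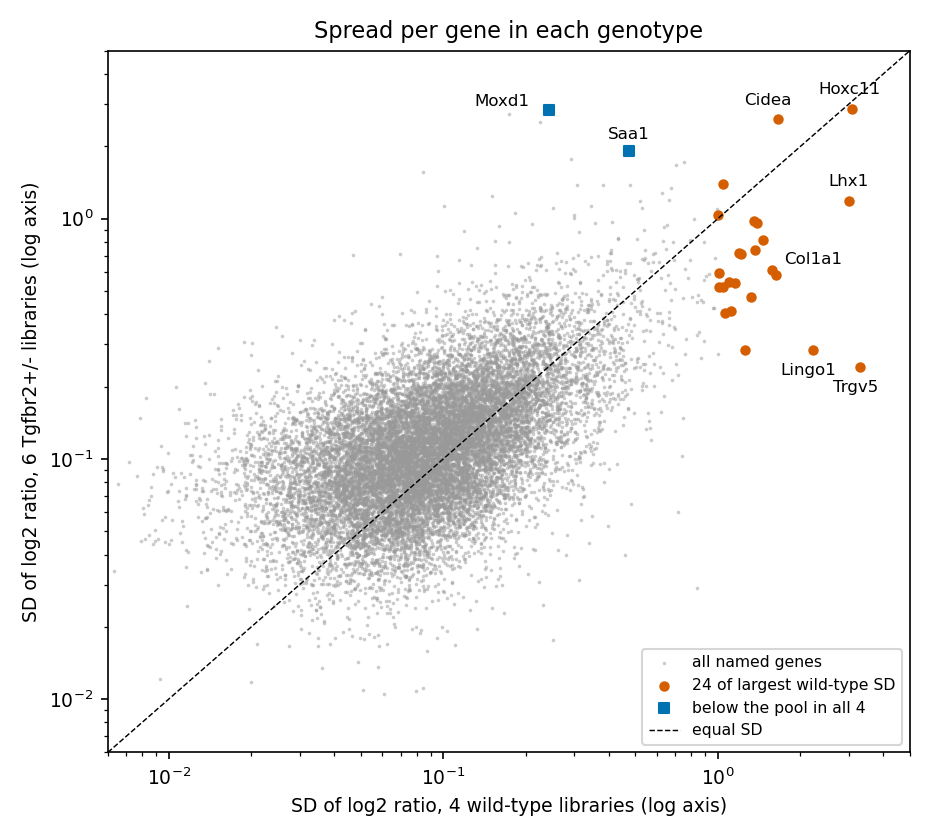
SD of the log2 ratio in the 4 wild-type libraries (x axis) against that in the 6 Tgfbr2+/- libraries (y axis), both on log axes, 1 point per named gene. The 24 genes of largest wild-type SD are orange, and 21 of them lie below the dashed line of equal SD. Moxd1 and Saa1 lie far above it.

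Whether a gene's spread differed between the groups was tested on absolute deviations from the group mean with limma over 16383 genes. Wild type was more variable for 3 genes (0.0183% of genes) and Tgfbr2+/- for 0 (0% of genes), with 1190 genes at an unadjusted p under 0.05. Rrp12, a ribosome export factor gene, lay at 0.41, 0.56, -0.17 and -0.40, and over -0.28 to -0.16 in Tgfbr2+/-. Mgll, the monoacylglycerol lipase gene, lay at 0.40, 0.32, -0.24 and -0.29, and over -0.21 to 0.10 in Tgfbr2+/-. Urad, a urate breakdown enzyme gene, lay at 0.26, 0.35, -0.12 and -0.22, and over -0.18 to -0.09 in Tgfbr2+/-. In each, replicates 1 and 2 lay above the pool and replicates 3 and 4 below it, and the heterozygous range was narrower. Such an even split gives deviations of similar size in every wild-type library, which this test favours. The shared pattern is therefore no separate result.

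None of these 3 calls held when any 1 of the 10 libraries was left out, where limma called 0 or 1 other gene. Limma called 0 genes when deviations were taken from the median (613 at an unadjusted p under 0.05), with wild-type replicate 1 turned in sign (1206) and with Tgfbr2+/- replicate 5 turned (1218). Moxd1 (limma adjusted p = 0.59) and Saa1 (limma adjusted p = 0.687) were not called.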

How the data were processed

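Each liver was hybridised with the wild-type pool on a 2-colour array, and the authors deposited 1 log10 ratio per probe and library, with columns centred close to 0. The log10 base follows from values exactly at 2 and -2, a limit of 100-fold. Scanner, background correction and normalization are not given in the sources used here. No intensities were used, so dim spots could not be left out and the number of arrays limits the precision.

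Deposited ratios were multiplied by 3.3219 to give log2 ratios. Of 23438 probes, 17726 had 1 gene symbol in the platform annotation, 50 several and 5662 none. Probes of a gene were averaged (1142 of 16383 genes had several, and in 524 their wild-type means had opposite signs). The SD was taken over the 4 libraries. The ratio was tested against 0 with limma 3.58.1 in R 4.3.3 (lmFit with an intercept, eBayes, two-sided), with Benjamini-Hochberg adjustment over 16383 genes and a threshold of 0.05. Spread in wild type against Tgfbr2+/- was tested with limma on absolute deviations from the group mean, scaled for group size. The scripts were tested on simulated data.

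The rule for named genes took the 24 of largest SD, the 12 farthest above and the 12 farthest below the pool in all 4 libraries (by the library closest to it), Tgfbr2, in each list the 3 of largest SD and the 2 farthest on each side, and any clock or sex chromosome gene. Named outside it, after their values were seen, were G6pc, Got1, Angptl4, Orm1, Orm3, Serpina10, Hp, Folr2, Clec4f, Vsig4, Mpeg1, Ctss, Sdf2l1, Manf, Pdia4, Hsp90b1, Insig1, Cyp51, Fdps, Krt14, Krt19, Col3a1, Acta2, Lrat, Rrp12, Mgll, Urad, Plcd3 and Crym. Members and gene lists were chosen with earlier results of these data known. Alternatives covered centring, quantile normalization, the sign of wild-type replicate 1, probe choice, values at the limit, left-out libraries, the fit and the measure of spread. Turning Tgfbr2+/- replicate 5 in sign was added after seeing the data.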

Additional observations from a re-analysis of the deposited data

Results flagged for a closer look

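In 20 cases the wild-type library farthest from the other 3 was apart by more than Dixon's 95% critical value for 4 samples. Chance gives about 1 in 20 groups, and many of these genes were named because they vary, so the number of such cases tells nothing further.

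Replicate 3 stood apart as the highest library for Trgv5 (6.64, with the others from -0.10 to 0.11), Miox (3.67, others 0.25 to 0.54), Hyal5 (2.38, others 0.02 to 0.24) and Plcd3 (1.34, others -0.67 to -0.64). Replicate 4 stood apart as the lowest for Lpin1 (-2.12, others 0.63 to 0.88), Rgs16 (-1.78, others 0.50 to 0.75), Cd163 (-0.81, others 0.21 to 0.40), Pck1 (-0.59, others -0.07 to 0.01) and Angptl4 (-0.51, others 0.24 to 0.26). It stood apart as the highest for Phlda1 (1.14, others -1.13 to -0.92), Crym (1.02, others -1.14 to -0.83) and S100a9 (0.13, others -0.52 to -0.45). Replicate 1 stood apart as the highest for Upk1b (0.86, others -0.56 to -0.36), Col1a2 (0.63, others -0.27 to -0.20), Krt7 (0.51, others -0.23 to -0.16) and the mean of the mesothelium list (0.51, others -0.32 to -0.20). Replicate 2 stood apart for Asns (0.96, others -1.22 to -0.92), Slc10a1 (0.40, others -0.15 to -0.10) and Orm3 (-0.027, others -0.14 to -0.13) as the highest and for Aqp8 (-0.72, others -0.35 to -0.31) as the lowest.

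For 7 of the named genes all 4 wild-type libraries lay below the pool and all 6 Tgfbr2+/- libraries above it. Over all genes 36 did (0.22%), and 8 of the 32 measured macrophage markers. The count of 7 depends on which genes were named, so it does not measure how common this pattern is. Of the 6 macrophage markers named here, Folr2, Clec4f, Vsig4, Mpeg1 and Ctss were chosen after their values were seen. Ctss averaged -0.25 in wild type and 0.33 in Tgfbr2+/-. Folr2 averaged -0.31 and 0.30, Vsig4 -0.23 and 0.25, Adgre1 -0.28 and 0.21, Clec4f -0.25 and 0.19, and Mpeg1 -0.17 and 0.15. The interferon-induced gene Ifi27l2a averaged -0.46 and 0.37. The difference between the genotypes was not tested, and both are ratios to the same pool.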

How the results depend on the processing

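Counts depended on the number of libraries and on how far from the pool a gene had to lie. With 1 library left out, 131 to 180 genes had an SD over 0.5 in place of 148, and 65 did by the median absolute deviation. One-sided genes numbered 2406, 3794 to 4748 with 1 library left out and 99 past 0.1 in all 4. Those above numbered 1454, 2252 to 2747 and 33, and those below 952, 1542 to 2070 and 66. Limma's 4 calls against the pool were 1 to 6 with 1 library left out, and 0 when wild-type replicate 1 had its sign turned or with all 10 libraries in the fit. The same 4 genes were called after centring, quantile normalization, array weights and robust eBayes. The counts below the pool in all 4 were 9 acute phase genes (9 to 13 with 1 library left out, 0 with replicate 1 turned), 14 macrophage genes (15 to 18, and 3) and 13 interferon-stimulated genes (16 to 25, and 6).

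The 3 genes of different spread became 0 or 1 with 1 library left out, and 0 with deviations from the median, with wild-type replicate 1 turned or with Tgfbr2+/- replicate 5 turned. With the replicate number as a block (replicate block) 1 gene was called, Olfr196, more variable in Tgfbr2+/-. No label says that a shared number pairs mice, so the numbers were not taken as pairs. Same-numbered libraries had correlations of their deviations of 0.087, 0.092, 0.302 and 0.007. Over genes, wild-type replicate 3 correlated at 0.405 with Tgfbr2+/- replicate 3, the highest value between the groups. The highest between wild-type libraries was 0.198. Of 1272 SDs of named genes under an alternative, 1111 stayed within 1.5 times the value given. Of 1656 tests of their means against the pool, 1639 gave the same call. Only 4 genes were called at the start, so most of these tests agree by staying uncalled. That agreement does not show that the 4 calls are stable. Ratios without intensities cannot show which values rest on dim spots.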
